A study of Homo sapiens with 12 samples.

Results

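The 79 genes described here encode the proteins of the cytosolic ribosome and were chosen by symbol alone. Rows named RPL or RPS with a number and at most a closing A, X or L, together with RPLP0, RPLP1, RPLP2 and RPSA, gave 81 of the 54261 rows of the table. Of these, 79 reached an FPKM (fragments assigned to a gene, scaled by its length and by the depth of the library) of at least 1 in at least 3 of 12 libraries and were tested among 13312 genes, while RPL10L and RPL3L did not. They comprised 32 genes of the small (40S) and 47 of the large (60S) subunit. RNA was sequenced from BON-1, an established human pancreatic neuroendocrine tumour cell line, as polyadenylated RNA. There were 4 groups of 3 libraries. They held BON-1 cells grown alone, and BON-1 cells that had shared a culture with CAFs (cancer-associated fibroblasts) mixed 10:2, 10:4 or 10:6 with BON-1 given first. The labels give 1 protocol for every library, BON-1 alone included, and it speaks of BON-1 cells sorted out of co-culture by flow cytometry. Whether cells grown alone were sorted in the same way is not said beyond that shared wording, and the part of sorting in the differences was not tested. The labels do not say whether the libraries of a group came from separate cultures, so p-values measure only the spread between these samples, which may be technical.

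A ribosome is assembled in the nucleolus from ribosomal RNA and ribosomal proteins, which are needed in equal numbers of copies apart from the P stalk, whose acidic proteins are present as paired copies. Most ribosomal protein mRNAs of vertebrates begin with a terminal oligopyrimidine (TOP) tract, a C at the cap followed by a run of C and T. Through this tract their translation is controlled together by the mTOR pathway and the RNA-binding protein LARP1, without a need for a change in mRNA level.

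The annotated starts of these genes showed that tract. A C at the start base followed by at least 4 further bases that were each C or T stood at 42 of the 64 start windows matched by symbol in RefSeq (65.6%), against 4.601% of 15843 protein-coding promoters read the same way and 7.25% of 69 mitochondrial ribosomal protein promoters. The windows below are shown because they belong to members whose values are described later, with and without the tract. Each holds 15 bases before the annotated start and 15 from it on, 5′ to 3′, from RefSeq on GRCh38.p14, with the unbroken pyrimidine run through the start in capitals.
RPLP1: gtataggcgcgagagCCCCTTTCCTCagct
RPS25: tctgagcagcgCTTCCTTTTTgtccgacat
RPL24: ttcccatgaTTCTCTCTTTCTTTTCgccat
RPS6: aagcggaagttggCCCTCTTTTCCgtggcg
RPL22: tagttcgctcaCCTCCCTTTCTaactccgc
RPS27: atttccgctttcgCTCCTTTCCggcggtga
RPS27L: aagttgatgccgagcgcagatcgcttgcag
RPL13: ggccctgctatcaTCCCagagtgcattgcg
RPL6: tatttgtatcctcagTgaatcagaaccaga
The RPLP1 window lies at chr15:69452803-69452832, plus strand, that of RPS25 at chr11:119018329-119018358, minus strand and that of RPL24 at chr3:101686704-101686733, minus strand. The RPS6 window is chr9:19380222-19380251, minus strand, and the RPL22 window is chr1:6199581-6199610, minus strand. Those of the paralogs RPS27 and RPS27L are chr1:153990747-153990776, plus strand, and chr15:63157463-63157492, minus strand. RPL13 is at chr16:89560642-89560671, plus strand, and RPL6 at chr12:112411428-112411457, minus strand. RPS27L and RPL13 lacked the tract at the annotated start. RPL6 lacked it at the start shown, which lies inside the annotated gene (chr12:112405181-112418835), and its outermost start was not read. The annotated start need not be the start used in BON-1 cells, and the data resolve no start.

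Library depths worked out from the steps of the FPKM values ranged from 11703624 to 21882537 reads, with 11703624 to 15327524 in the co-cultures and 12918760 to 21882537 in BON-1 alone. Fibroblast genes were higher in the co-cultures. Of 23 fibroblast markers 18 were tested, and 10 rose at 10:2, 15 at 10:4 and 15 at 10:6, with 0 falling. Their summed FPKM was 2419 to 2501 in BON-1 alone, 2294 to 2373 at 10:2, 2387 to 2635 at 10:4 and 2574 to 2860 at 10:6, most of it from S100A4 and VIM, which BON-1 cells alone also expressed. Without these 2 genes the sum was 95.3 to 97.5 in BON-1 alone, 131.5 to 134.8 at 10:2, 214.0 to 221.5 at 10:4 and 298.9 to 302.7 at 10:6. COL1A1, a chain of type I collagen, averaged 54.4 ± 0.794 FPKM at 10:6 and 9.22 ± 0.148 in BON-1 alone, whereas PDPN, a surface glycoprotein of fibroblasts, was at 0 in every co-culture library. The part of fibroblast RNA in the values below was not tested. Of 10 leukocyte and endothelial markers 4 were tested, CD3E was at 0 in all groups, and the summed level was 48.9 to 51.0 FPKM at 10:6 and 47.7 to 49.3 in BON-1 alone. Of 17 neuroendocrine markers 13 were tested, and 6 rose and 5 fell at 10:6, where 29.7% of all genes rose and 18.3% fell. Their summed FPKM was 3247 to 3324 at 10:6 and 2895 to 2983 in BON-1 alone. The median marker had 31.8 to 37.9 FPKM at 10:6 and 24.2 to 27.0 in BON-1 alone. SCG2, a granin, was at 1401 ± 7.84 FPKM at 10:6 and 747 ± 5.35 in BON-1 alone. CHGA, chromogranin A, was at 975 ± 39.2 and 1347 ± 25.9.

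Ribosomal protein genes were among the most abundant transcripts of BON-1 cells. Together they took 16.1% ± 0.209 of all FPKM at 10:6 and 16.2% ± 0.134 in BON-1 alone (SD, n = 3), and 47 of the 100 rows with the highest mean FPKM were members. The median member had a mean of 795 FPKM over the 12 libraries, against 42.6 for 77 mitochondrial ribosomal protein genes and 7.22 for all genes tested. The quartiles of the members were 377 and 1291 FPKM; 33 exceeded 1000 FPKM and 8 were under 100. The subunits had medians of 787 FPKM for small-subunit and 831 FPKM for large-subunit genes.

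**Figure D1:**
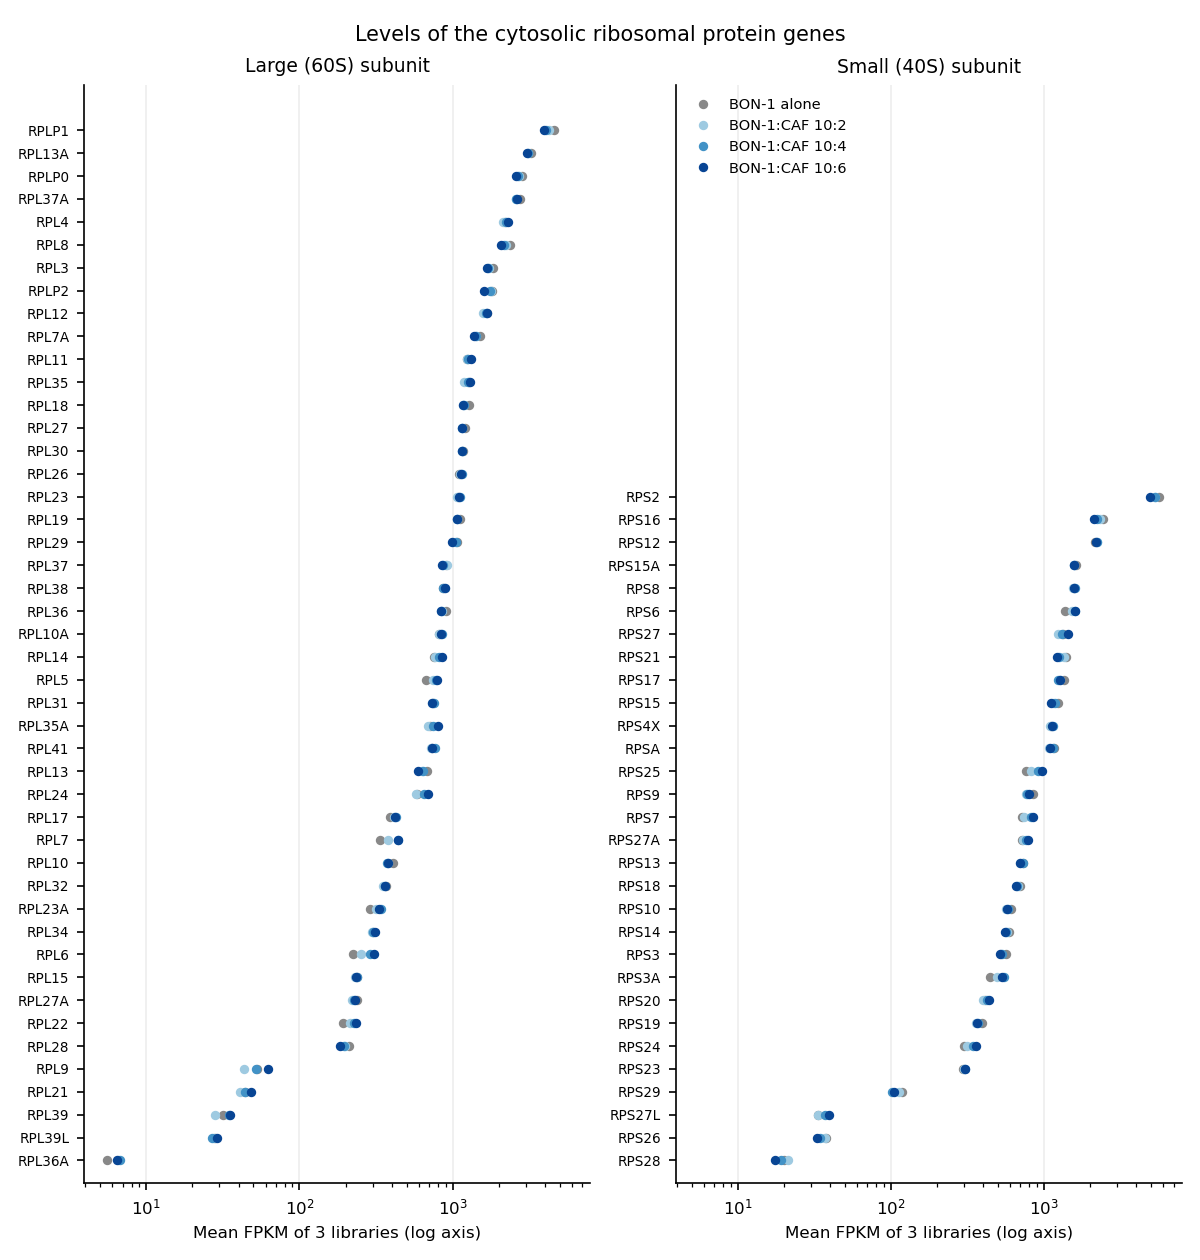
Mean FPKM of 3 libraries (log axis) for tested ribosomal protein genes, with 1 point per group and genes ordered by their mean over all libraries; large-subunit genes are on the left and small-subunit genes on the right. The genes spread from 6.30 FPKM for RPL36A to 5290 for RPS2, while the 4 points of a gene lie close together.

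RPS2, a protein of the mRNA entry side of the 40S subunit, had the highest level, 5290 FPKM, which ranked 7 among all rows of the table. RPLP1, an acidic P stalk protein, followed with 4209, then RPL13A, a 60S protein with a reported role in translational silencing by interferon, with 3126. The libraries of these 3 genes did not overlap within any group. RPL13A had 3120, 3010 and 3010 FPKM at 10:6 and 3207, 3253 and 3321 in BON-1 alone. At the other end stood RPL36A with 6.30 FPKM, RPS28 with 19.5, RPL39L with 27.9 and RPL39 with 32.4. The libraries of RPL39L and RPL39 overlapped in BON-1 alone and at 10:2, while at 10:4 and 10:6 every library was higher for RPL39 than any was for RPL39L. The order of the members depends on the gene lengths behind the FPKM values. RPL13 had 34610 to 70398 reads per library over a length of 4672 bases and ranked 50 among members, with 636 FPKM. RPLP1 had 24901 to 52641 reads over 512 bases. Whether these lengths are those of the transcripts in BON-1 cells was not tested. Within a group the coefficient of variation of a member was 2.97% at the median and 24.3% at most.

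Most of the 8 members under 100 FPKM shared sequence with other annotated genes, and 5 of them (RPL9, RPL21, RPL39, RPS26 and RPS28) with genes named as pseudogenes, whereas RPL39L and RPS27L shared 0%. Of the 100-base stretches of RPL36A transcripts, 20.97% also occurred in other annotated genes, of which 0 are named as pseudogenes, and the shares were 16.4% for RPL9, 21.4% for RPS26, 18.9% for RPL39, 32.2% for RPL21 and 9.05% for RPS28. The pseudogene row RPS28P7 held 854 ± 31.6 FPKM at 10:6 and 961 ± 50.4 in BON-1 alone, where RPS28 itself held 17.5 ± 2.25 and 20.01 ± 0.645. Likewise RPL9P8 held 424 ± 10.9 and 389 ± 5.15, against 62.6 ± 7.88 and 52.7 ± 11.8 for RPL9, and RPL36AP37 held 282 ± 5.43 and 270 ± 8.60, against 6.39 ± 0.453 and 5.53 ± 0.429 for RPL36A. These rows exceeded the rows of the named genes in every group. In all 1921 rows carried pseudogene names; 112 of them reached 1 FPKM in 3 libraries and 1277 were at 0 throughout, and they summed to 1.18% of FPKM at 10:6 and 1.16% in BON-1 alone. How reads that match several places were counted is not given in the sources used here, so levels of members with a high share are uncertain.

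Summed over all members, the level changed little with co-culture. The sums were 82082, 84264 and 83447 FPKM in BON-1 alone, 78818, 80966 and 81494 at 10:2, 85747, 80969 and 77355 at 10:4, and 81403, 80533 and 79317 at 10:6. All libraries at 10:2 and 10:6 lay below all of BON-1 alone, while those at 10:4 spanned both the highest and the lowest sum of the 12. The means were 80418 ± 1048 at 10:6 and 83264 ± 1102 in BON-1 alone (SD, n = 3). The first 10:4 library was the highest of the 12 for 30 of 79 members and the third 10:4 library the lowest for 26, so in that group the libraries differed for many members in the same direction. As a share of all FPKM the groups at 10:6 and in BON-1 alone overlapped, with 15.9% to 16.3% at 10:6 and 16.1% to 16.3% in BON-1 alone. As a share of reads, which is not scaled by gene length, they did not, with 7.41% to 7.59% at 10:6 and 7.66% to 7.83% in BON-1 alone. In these libraries of pooled cells a change in RNA per cell cannot be seen, and fewer cells of a type and less RNA per cell cannot be told apart.

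**Figure D2:**
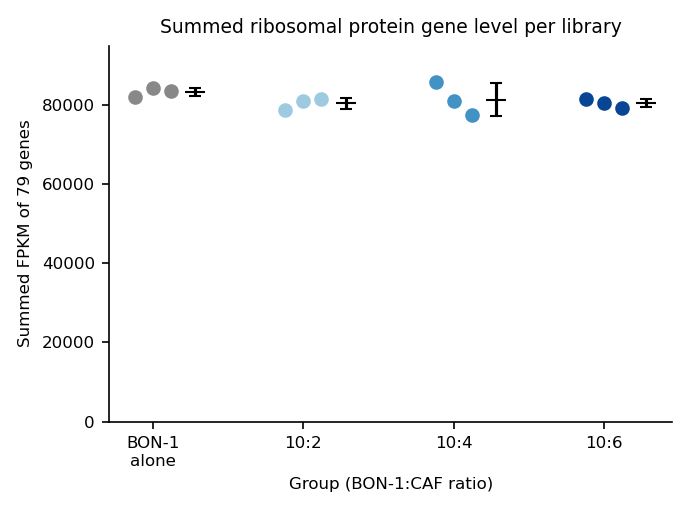
Summed FPKM of the 79 ribosomal protein genes in each library (points, in replicate order) with the group mean and SD (bars), for BON-1 alone and the 3 ratios. The sums lie between 77355 and 85747 FPKM, and the 10:4 libraries are the most spread.

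Single members moved in both directions, by small amounts. Against BON-1 alone, 8 members rose and 12 fell at 10:2, 14 rose and 14 fell at 10:4, and 18 rose and 19 fell at 10:6 (limma on log2(FPKM + 1), adjusted p under 0.05 by Benjamini-Hochberg over all genes tested). Among all genes tested, 19.9% rose and 7.46% fell at 10:2 (27.4% in either direction), 27.3% rose and 18.1% fell at 10:4 (45.4%), and 29.7% rose and 18.3% fell at 10:6 (48.0%). With rises and falls added, 25.3% of the members were called at 10:2 and 46.8% at 10:6, near the shares of genes at large. At 10:4 it was 35.4%, below that share. Taken by direction, rises were below those shares at each ratio, while falls were above them at 10:2 and 10:6 and near them at 10:4. The median log2 fold change of the members was -0.046 at 10:2, -0.024 at 10:4 and -0.025 at 10:6, beside 0.003, -0.010 and 0.019 for all genes tested, and 68, 62 and 49 of the 79 stayed within 1.1-fold. The members ranged from -0.27 to 0.20 at 10:2, from -0.21 to 0.39 at 10:4 and from -0.23 to 0.45 at 10:6. The 3 comparisons share the BON-1 alone libraries. Over the 4 groups 36 members differed by the moderated F test of limma, against 44.4% of all genes.

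**Figure D3:**
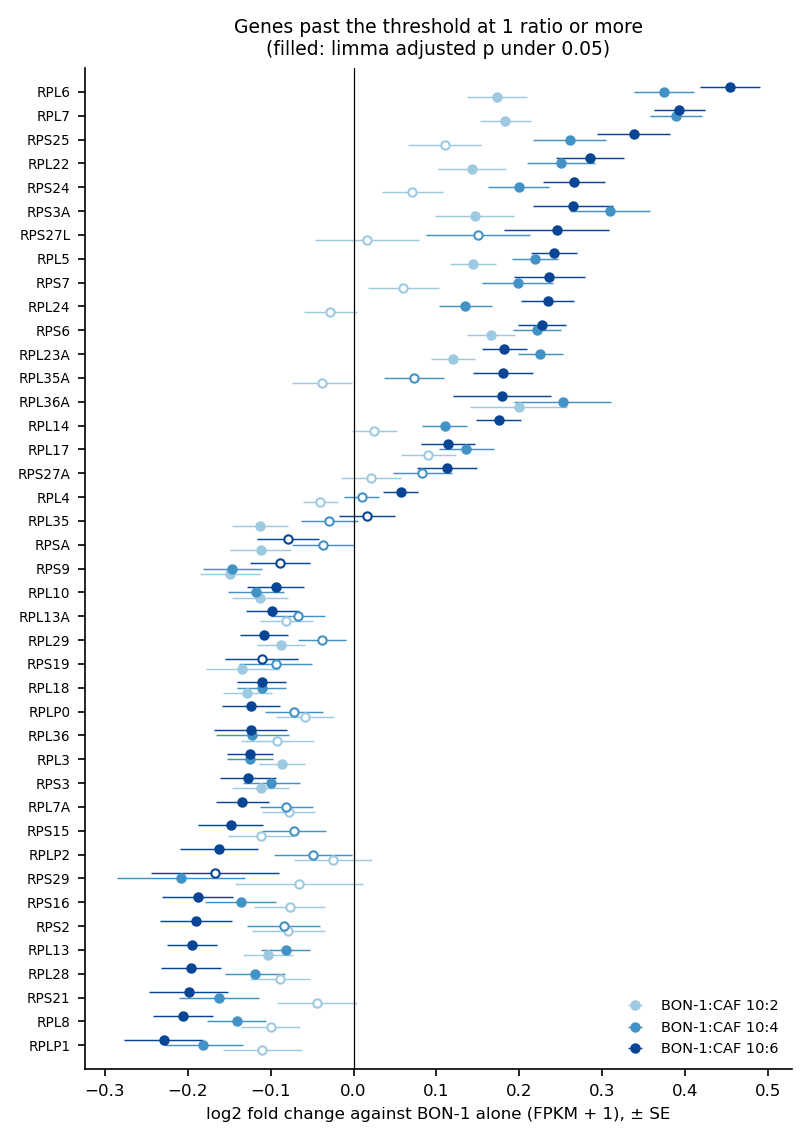
Log2 fold change (± SE) against BON-1 alone at each ratio for members past the threshold at 1 ratio or more, ordered by their value at 10:6; filled points have a limma adjusted p under 0.05. RPL6 stands highest at 0.45 and RPLP1 lowest at -0.23.

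RPL6 and RPL7, 60S proteins that bind ribosomal RNA, rose most at 10:4 and 10:6, while at 10:2 the largest rise was that of RPL36A (0.20 ± 0.059 on the log2 scale, limma adjusted p = 0.0264). RPL6 had 220.2, 225 and 225 FPKM in BON-1 alone, 259, 246 and 252 at 10:2, 286, 309 and 276 at 10:4 and 309, 304 and 307 at 10:6. Each co-culture library lay above every library of BON-1 alone, and those at 10:4 and 10:6 above those at 10:2, while 10:4 and 10:6 overlapped. The log2 fold change was 0.45 ± 0.036 (SE) at 10:6, with limma adjusted p = 2.63e-06. RPL7 had 330.1, 346 and 327 FPKM in BON-1 alone, 376, 385 and 378 at 10:2, 446, 447 and 422 at 10:4 and 448, 432 and 438 at 10:6, with groups apart from BON-1 alone at each ratio and 10:4 and 10:6 overlapping. Its log2 fold change was 0.39 ± 0.031 at 10:6 (limma adjusted p = 2.25e-06). Of their 100-base stretches 20.9% and 23.1% also occur in other genes. The rows RPL6P27 and RPL7P1 likewise stood higher, RPL6P27 at 45.7 ± 0.891 FPKM at 10:6 and 34.7 ± 1.48 in BON-1 alone, and RPL7P1 at 138 ± 2.94 and 113 ± 6.07.

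RPS25, a 40S protein needed for initiation at some internal ribosome entry sites, came next in size at 10:6. It had 968, 979 and 943 FPKM at 10:6, against 738, 785 and 762 in BON-1 alone, with no overlap. The log2 fold change was 0.34 ± 0.044 at 10:6 (limma adjusted p = 8.52e-05) and 0.26 ± 0.044 at 10:4 (limma adjusted p = 0.000588). RPL22, a 60S protein that is dispensable for translation and is recurrently mutated in some cancers, had 234, 239 and 228 FPKM at 10:6 and 190.3, 197 and 188 in BON-1 alone, a log2 difference of 0.28 ± 0.041 (limma adjusted p = 0.000182). RPS24, a 40S protein mutated in Diamond-Blackfan anaemia, had 356, 360.5 and 356 FPKM at 10:6 and 294, 302 and 296 in BON-1 alone, a log2 difference of 0.27 ± 0.037 (limma adjusted p = 0.000131). RPS3A, a 40S protein near the mRNA exit, had 532, 527 and 535 FPKM at 10:6 and 445, 443 and 438 in BON-1 alone, a log2 difference of 0.27 ± 0.048 (limma adjusted p = 0.000831). In these 4 genes too the libraries at 10:6 and of BON-1 alone did not overlap. Non-overlap also occurred in members that did not pass the test at 10:6, RPL19, RPL27 and RPS10 among them. Its share over all genes is not given here.

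RPS6, the 40S protein that S6 kinase phosphorylates downstream of mTOR, had 1587, 1613 and 1577 FPKM at 10:6 and 1339, 1380 and 1361 in BON-1 alone. The groups did not overlap. It rose by 0.17 ± 0.029 on the log2 scale at 10:2 (limma adjusted p = 0.0014), by 0.22 ± 0.029 at 10:4 (8.97e-05) and by 0.23 ± 0.029 at 10:6 (6.84e-05). Members that rose at all 3 ratios numbered 8: RPL5, RPL6, RPL7, RPL22, RPL23A, RPL36A, RPS3A and RPS6. RPL36A, the lowest member, had 5.16, 6.00 and 5.44 FPKM in BON-1 alone, 6.51, 6.36 and 6.60 at 10:2, 6.73, 6.86 and 6.73 at 10:4 and 6.52, 6.77 and 5.89 at 10:6, from 166 to 310 reads per library. Its libraries at 10:6 overlapped those of BON-1 alone. At 10:4, 6 more members rose, namely RPL14, RPL17, RPL24, RPS7, RPS24 and RPS25, and at 10:6 RPL4, RPL35A, RPS27A and RPS27L joined them.

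Falls were smaller. RPLP1 had 4534, 4698 and 4555 FPKM in BON-1 alone, 4156, 4327 and 4289 at 10:2, 4376, 3991 and 3810 at 10:4 and 3999, 4071 and 3698 at 10:6. Every co-culture library lay below every library of BON-1 alone. The log2 fold change was -0.23 ± 0.048 at 10:6 (limma adjusted p = 0.00209). RPL8, a 60S protein close to the peptidyl transferase centre, had 2065, 2055 and 2058 FPKM at 10:6 and 2310, 2373 and 2446 in BON-1 alone, a log2 difference of -0.21 ± 0.036 (limma adjusted p = 0.000682). RPS21, a small 40S protein, had 1196, 1284 and 1167 FPKM at 10:6 and 1344, 1416 and 1424 in BON-1 alone, a log2 difference of -0.20 ± 0.048 (limma adjusted p = 0.00529). The groups did not overlap in any of these genes. RPL28 and RPL13, both 60S proteins, fell by similar amounts: RPL28 had 182, 184 and 184 FPKM at 10:6 and 209.8, 212 and 209.8 in BON-1 alone (log2 difference -0.20 ± 0.036, limma adjusted p = 0.000875), and RPL13 609, 576 and 593 and 666, 689 and 680.5 (log2 difference -0.20 ± 0.030, limma adjusted p = 0.000287). Members that fell at all 3 ratios numbered 5: RPL3, RPL10, RPL13, RPL18 and RPS3. RPL3, a 60S protein that reaches towards the peptidyl transferase centre, had 1701, 1688 and 1674 FPKM at 10:6 and 1845, 1839 and 1840 in BON-1 alone (log2 difference -0.12 ± 0.028, limma adjusted p = 0.0031). RPL10, a 60S protein that joins last in assembly, had 392, 375 and 376 at 10:6 and 401, 408 and 410 in BON-1 alone (log2 difference -0.094 ± 0.034, limma adjusted p = 0.0364). Both were lower at 10:6 without overlap. RPL13A had a log2 difference of -0.098 ± 0.032 at 10:6 (limma adjusted p = 0.0256), also past the test.

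**Figure D4:**
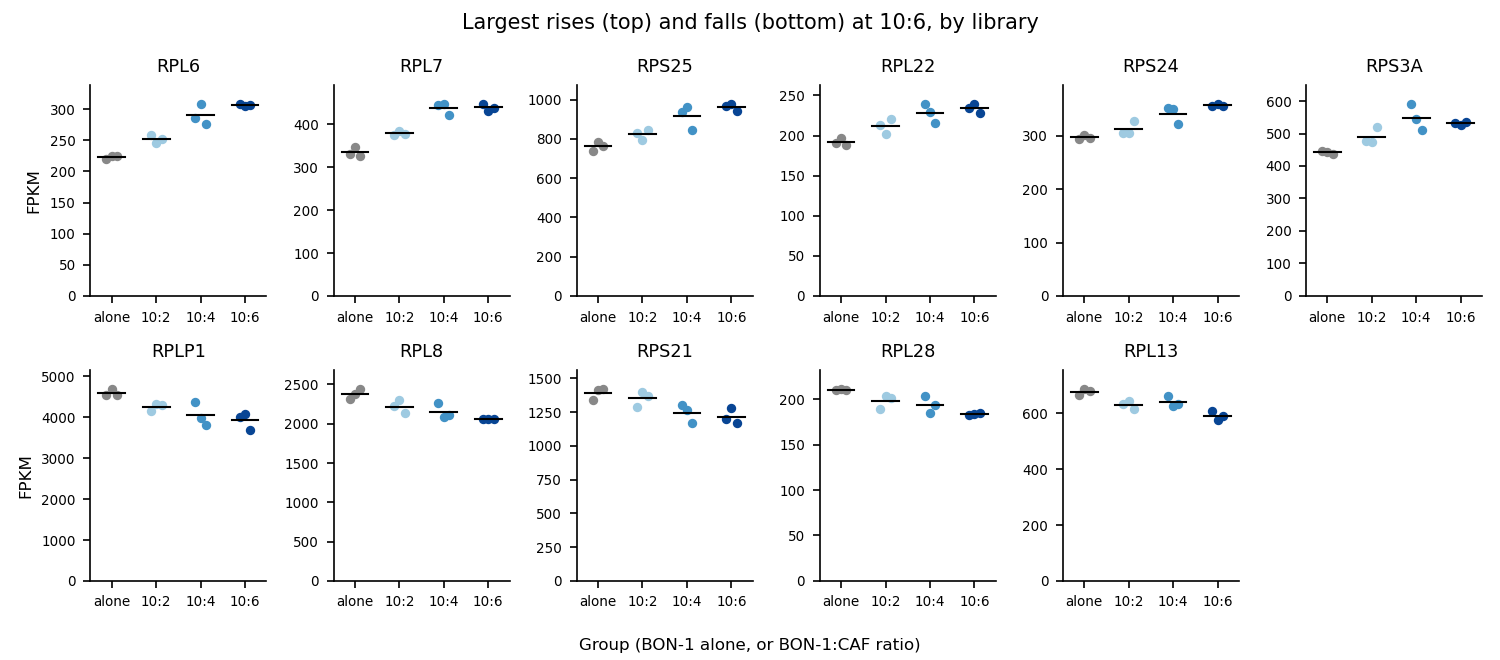
FPKM in each library (points) and group means (lines) for the largest rises (top row) and falls (bottom row) at 10:6, with vertical axes from 0. In each gene the 3 libraries at 10:6 lie apart from the 3 of BON-1 alone. The genes were chosen for the size of their change, and such separation also occurred in members not past the test.

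The P stalk recruits the elongation factors, and each of its 3 genes fell at 10:6, where 18.3% of all genes and 19 of the 79 members fell. RPLP0, its anchor on the ribosome, had 2599, 2573 and 2587 FPKM at 10:6 and 2784, 2809 and 2865 in BON-1 alone, and RPLP2, the partner of RPLP1, had 1629, 1632 and 1562 at 10:6 and 1731, 1837 and 1829 in BON-1 alone. In neither gene did the groups overlap. The log2 fold changes were -0.12 ± 0.035 for RPLP0 and -0.16 ± 0.047 for RPLP2 (limma adjusted p = 0.0117 and 0.0138). The call of RPLP2 was lost without the second BON-1 alone library or the third 10:6 library, with a limma adjusted p of 0.051 and 0.0554. RPLP2 was left with -0.003 once the GC and length trends described below were removed. At 10:2 and 10:4 RPLP0 and RPLP2 did not pass the test, and RPLP1 passed at 10:4 but not at 10:2 (log2 fold change -0.18 and -0.11).

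The other structural groups were mixed. RPL5 and RPL11, which carry 5S ribosomal RNA into the 60S subunit and can bind MDM2, were both higher at 10:6, 1 of them past the test. RPL5 had 782, 793 and 810.4 FPKM at 10:6 and 681, 665 and 670 in BON-1 alone (log2 difference 0.24 ± 0.028, limma adjusted p = 3.3e-05). RPL11 had 1322, 1322 and 1284 FPKM at 10:6 and 1209, 1256 and 1246 in BON-1 alone, without overlap, but its log2 difference of 0.082 ± 0.040 did not pass the test (limma adjusted p = 0.108). Whether these 2 genes differ from each other was not tested. Of 8 genes at the exit tunnel and its rim, RPL4, RPL17 and RPL23A rose at 10:6 and 0 fell, where 29.7% of all genes rose. With the length and GC trends removed 2 of the 8 rose and 4 fell, where 11.6% of all genes rose and 14.1% fell. RPL4 then fell, with a log2 fold change of -0.11 (limma adjusted p = 0.00057), as did RPL17 with -0.16 (limma adjusted p = 0.000409), and RPL23A still rose. Of 4 genes listed for the mRNA entry and decoding side of the 40S subunit, RPS2, RPS3 and RPS15 fell and 0 rose, where 18.3% of all genes fell. With the trends removed RPS3 still fell (-0.32, limma adjusted p = 6.95e-05) and RPS23, not called before, fell too (-0.19, limma adjusted p = 0.0285). RPS2 was left with -0.053 and RPS15 with 0.008, neither past the test (limma adjusted p = 0.194 and 0.865). RPS9, a protein of the mRNA channel outside that list, did not pass at 10:6 (log2 difference -0.089 ± 0.036, limma adjusted p = 0.0633). With the trends removed RPS9 had 0.041, also not past the test. RPS2 had 5012, 4908 and 4846 FPKM at 10:6 and 5566, 5649 and 5629 in BON-1 alone (log2 difference -0.19 ± 0.044, limma adjusted p = 0.00381). Of 18 genes mutated in Diamond-Blackfan anaemia, an inherited failure of red cell production, 4 rose and 1 fell at 10:6, with a median log2 fold change of -0.016, or 1 and 7 with a median of -0.073 with the trends removed. RPS19, the gene most often mutated in that disease, had 369.9, 349 and 367 FPKM at 10:6 and 389, 401 and 384 in BON-1 alone, a log2 difference of -0.11 ± 0.044 that did not pass the test (limma adjusted p = 0.0536); it passed at 10:2. Counted by subunit at 10:6, 7 of 32 small-subunit genes rose and 6 fell, and 11 of 47 large-subunit genes rose and 13 fell; with the trends removed these counts were 2 and 14, and 6 and 17.

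Against BON-1 alone 35 members passed the test at no ratio. The share of all genes that passed at none is not given here, nor the shares that rose or fell at every ratio. These counts are therefore not set against genes at large. RPL41, the smallest ribosomal protein, had 743, 698 and 751 FPKM at 10:6 and 738, 731 and 723 in BON-1 alone, a log2 difference of -0.000 ± 0.040. Its groups overlapped. Other members passed at a single ratio. RPSA, a 40S protein also known as the laminin receptor, had 1065, 1074 and 1085 FPKM at 10:2 and 1121, 1146 and 1220 in BON-1 alone, without overlap, and passed the test at 10:2 alone (log2 difference -0.11 ± 0.037, limma adjusted p = 0.0419). RPS27A, made as a fusion with ubiquitin, had 778, 801 and 757 FPKM at 10:6 and 712, 727 and 720.1 in BON-1 alone, without overlap, and passed it at 10:6 (log2 difference 0.11 ± 0.036, limma adjusted p = 0.0227). That call was lost without the first or the third BON-1 alone library or the second 10:6 library. RPL9 and RPS28 were the least precise members, with standard errors of 0.172 and 0.153 on the log2 scale. RPL9, a 60S protein, had 56.7, 62.01 and 39.4 FPKM in BON-1 alone, 34.2, 42.4 and 53.4 at 10:2, 49.5, 51.3 and 54.5 at 10:4 and 70.8, 62.01 and 55.1 at 10:6, with every group overlapping BON-1 alone.

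Members and their paralogs differed widely in level. RPS27 had 1431 ± 64.2 FPKM at 10:6 and 1321 ± 44.7 in BON-1 alone, while RPS27L, a p53-responsive paralog, had 39.5 ± 3.21 at 10:6 and 33.1 ± 2.33 in BON-1 alone (SD, n = 3 throughout). RPS27L libraries were 35.9, 40.5 and 42.1 at 10:6 and 30.9, 35.6 and 32.9 in BON-1 alone, without overlap, and it rose by 0.24 ± 0.063 (limma adjusted p = 0.00746), whereas the difference of 0.12 ± 0.045 in RPS27 did not pass (limma adjusted p = 0.0542). The difference between the paralogs was not tested. Of RPS27, 60% of 100-base stretches recur in other genes, the highest share of any member. RPL39L, a paralog known from testis and some tumours, had 27.6, 30.1 and 29.4 FPKM at 10:6 and 30.6, 28.1 and 26.1 in BON-1 alone, against RPL39 with 31.6, 36.4 and 37.2 at 10:6 and 31.6, 36.9 and 26.6 in BON-1 alone. The testis paralog RPL10L was at 0 in all libraries and RPL3L, a muscle paralog, never exceeded 0.114 FPKM, far below RPL10 and RPL3 in every library. Outside the symbol rule, RPL36AL had 137, 127 and 124 FPKM at 10:6 and 103, 99.9 and 103 in BON-1 alone, far above RPL36A, and rose by 0.34 ± 0.047 on the log2 scale (limma adjusted p = 0.000134). RPL22L1, the paralog of RPL22, had 10.2, 10.9 and 11.8 at 10:6 and 8.55, 8.53 and 7.93 in BON-1 alone and rose by 0.36 ± 0.081 (limma adjusted p = 0.00352). Neither overlapped between these groups. With the length and GC trends removed neither passed the test, RPL36AL having a log2 difference of 0.033 (limma adjusted p = 0.695) and RPL22L1 one of 0.052 (limma adjusted p = 0.628). RPL7L1 had 52.98 ± 1.39 FPKM at 10:6 and 49.6 ± 0.667 in BON-1 alone. RPL26L1 had 33.8 ± 1.34 at 10:6 and 34.4 ± 0.91 in BON-1 alone, under RPL26 with 1132 ± 33.1 at 10:6 and 1093 ± 9.46 in BON-1 alone.

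Across the members the change followed base composition. The GC content of the longest transcript ranged from 37.4% to 63.7% among members, with a median of 47.9%, against 49.7% over 12101 genes with a value. Over the 79 genes the Spearman correlation of the log2 fold change with GC content was -0.47 at 10:2, -0.56 at 10:4 and -0.65 at 10:6, given as a description, since the genes share the same libraries and are not independent. With length it was 0.073, 0.037 and 0.028 in the same order. At 10:6, 14 of the 27 members with the lowest GC content rose and 1 fell, while 1 of the 27 with the highest rose and 14 fell. Smooth curves on GC content and gene length were then fitted to each library over all genes and removed. After that 5 members rose and 24 fell at 10:2, 7 rose and 27 fell at 10:4, and 8 rose and 31 fell at 10:6. With the trends removed, 6.07% of all genes rose and 5.54% fell at 10:2 (11.6% in either direction), 10.6% and 12.5% at 10:4 (23.1%), and 11.6% and 14.1% at 10:6 (25.7%). The median log2 fold change of the members was then -0.046 at 10:2, -0.043 at 10:4 and -0.062 at 10:6. Whether the trends arose in the cells or in the libraries was not tested. The order among members then turned, with correlations of 0.71 at 10:2, 0.73 at 10:4 and 0.52 at 10:6. Of the 27 members with the lowest GC content 1 then rose and 15 fell at 10:6, and of the 27 with the highest 5 rose and 3 fell.

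**Figure D5:**
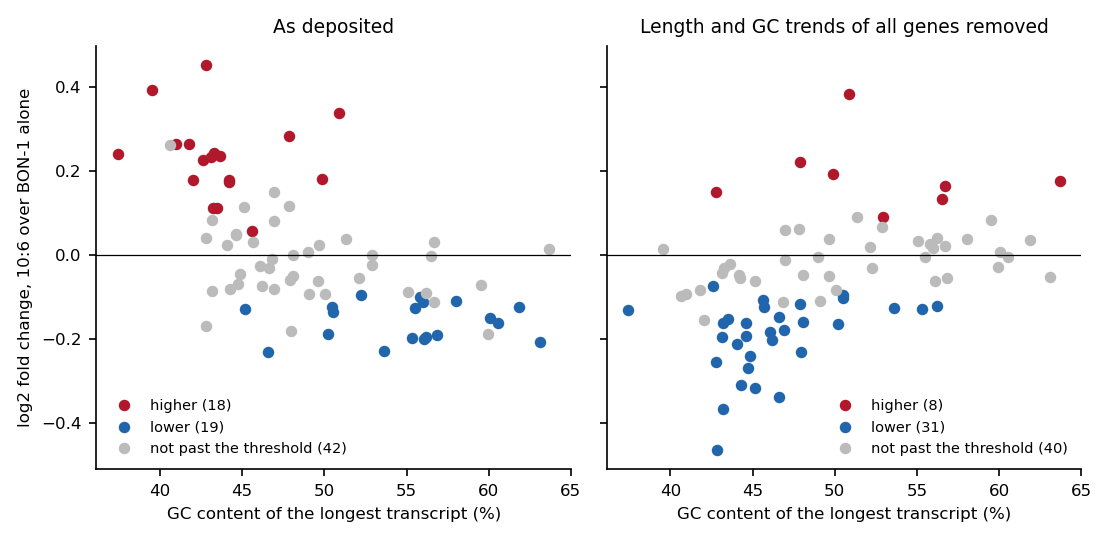
Log2 fold change at 10:6 over BON-1 alone against the GC content of the longest transcript for the 79 members, from the deposited FPKM (left) and with the length and GC trends of all genes removed (right); colours give the limma call at adjusted p under 0.05. On the left most rises lie at low GC content and most falls at high; on the right 31 members fall, 3 of them among the 27 with the highest GC content.

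Some calls held with these trends removed and many did not. Of the 18 rises at 10:6, 4 were still called as rises, 5 were called as falls and 13 in all had values below 0. Of the 19 falls, 8 were still called and 5 had values above 0, while 18 members not called before were called as falls. RPS25 kept a log2 fold change of 0.39 (limma adjusted p = 2.63e-05), RPL22 one of 0.22 (limma adjusted p = 0.00104) and RPL6 one of 0.15 (limma adjusted p = 0.0031), and RPL7 was left with 0.015. RPL5 turned to -0.13 (limma adjusted p = 0.00242) and RPS6 to -0.073 (limma adjusted p = 0.0181). RPS24, RPS3A, RPL24, RPL36A, RPS27A and RPS27L also had values below 0 at 10:6 then, and RPL13A one above 0. Among the falls RPLP1 moved to -0.34 (limma adjusted p = 5.24e-05) and RPL8 to -0.052, which no longer passed the test. The largest fall with the trends removed was that of RPS29, a 40S protein, at -0.46 (limma adjusted p = 0.000531). RPS29 had 97.4, 112 and 105 FPKM at 10:6, against 112, 123 and 118 in BON-1 alone, and from the deposited values passed the test at 10:4 alone. Under all 24 settings tried, left-out libraries included, RPL23A rose at 10:2, RPL22, RPL23A and RPS25 rose at 10:4, and RPL6, RPL22, RPL23A and RPS25 rose at 10:6. The members that fell at 10:6 under all of them included RPL7A, RPL13 and RPS16, and at 10:2 and 10:4 there was none. RPL7A and RPS16 are named for this count, after their values were seen. RPL23A, a 60S protein at the tunnel exit, had 286, 293 and 289 FPKM in BON-1 alone, 311, 312 and 319 at 10:2, 349, 336 and 329 at 10:4 and 332, 322 and 330.1 at 10:6. Its co-culture libraries all lay above those of BON-1 alone.

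Other scalings moved the balance of rises and falls. With median-of-ratios rescaling, 7 members rose and 15 fell at 10:2, 14 rose and 17 fell at 10:4, and 14 rose and 25 fell at 10:6. With quantile normalization, 11 rose and 4 fell at 10:2, 18 rose and 6 fell at 10:4, and 22 rose and 12 fell at 10:6. Of all genes, the rescaling called 28.8%, 47.6% and 51% in either direction, and quantile normalization 22.3%, 48.4% and 48.8%. The balance of rises and falls thus depended on the scaling at each ratio.

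RPS9 and RPS19 were among the largest falls past the test at 10:2. RPS9, a 40S protein of the mRNA channel, had 768, 787 and 742 FPKM at 10:2 and 837, 864 and 846 in BON-1 alone, without overlap (log2 difference -0.15 ± 0.036, limma adjusted p = 0.0105). RPS19 had 354, 363 and 352 at 10:2 and 389, 401 and 384 in BON-1 alone (log2 difference -0.13 ± 0.044, limma adjusted p = 0.0395). The count of 20 members called at 10:2 rested on few libraries. It was 10, 9 and 8 without the first, the second or the third library of BON-1 alone, and 7 without the first or the third 10:2 library. The share of all genes called fell too, from 27.4% to 20.4%, 19.4%, 19.8%, 20.7% and 19.6% in the same order. Among the calls named here, those of RPL3, RPL10, RPL13, RPL22, RPL36A, RPS3A, RPS19 and RPSA at 10:2 were each lost without 1 or more of these libraries. The calls of RPL10, RPL13A and RPL36A at 10:6 were lost without the third BON-1 alone or the second 10:6 library, among others. At 10:4 the count of 28 became 46, 14 rises and 32 falls, without the first 10:4 library, while the share of all genes went from 45.4% to 43.5%. The fall of RPS29 at 10:4 (log2 difference -0.21 ± 0.077, limma adjusted p = 0.0459) was lost without any of the 3 BON-1 alone libraries or the second or the third 10:4 library. That of RPL13 at 10:4 was lost without the second or the third library of either group, among others, that of RPS21 without the second or the third BON-1 alone or the third 10:4 library, and that of RPL28 without the second library of either group.

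Between ratios few members differed. At 10:4 against 10:2, 3 members rose and 0 fell, where 2.47% of all genes rose and 0.413% fell (2.88% in either direction). RPL24, a 60S protein at the subunit bridge, had 574, 604 and 588 FPKM in BON-1 alone, 584, 553 and 596 at 10:2, 648, 666 and 627 at 10:4 and 691, 695 and 691 at 10:6. The 10:2 libraries overlapped those of BON-1 alone, the 10:4 libraries lay above those of 10:2, and the 10:6 libraries above those of 10:4. The log2 difference was 0.16 ± 0.032 for 10:4 over 10:2 (limma adjusted p = 0.0256) and 0.26 ± 0.032 for 10:6 over 10:2 (limma adjusted p = 0.00163). RPL6 and RPL7 were the other 2, with log2 differences of 0.20 ± 0.036 and 0.21 ± 0.031 for 10:4 over 10:2. The count was 1 without the second 10:2 library, 0 without the second and 8 without the third 10:4 library. In these fits 0.451%, 0.338% and 1.93% of all genes were called. With the length and GC trends removed RPL23A rose and RPL5 fell, where 0.570% of all genes rose (0.826% in either direction). For 10:6 over 10:4, 0 members passed the limma test, where 0.331% of all genes did (0.0977% rose and 0.233% fell), and 0 did with the trends removed, where 0.769% of all genes were called and 0.512% fell. In that comparison 10 members had an unadjusted p under 0.05, and limma-voom on the recovered reads called 2, both lower. For 10:6 over 10:2, 11 members rose and 0 fell, where 4.52% of all genes rose and 2.45% fell (6.97%). They were RPL4, RPL6, RPL7, RPL14, RPL24, RPL35, RPL35A, RPS7, RPS24, RPS25 and RPS27. RPL6 had a log2 difference of 0.28 ± 0.036 (limma adjusted p = 0.00219), and RPS27 had 1477, 1458 and 1358 FPKM at 10:6 and 1223, 1216 and 1252 at 10:2, without overlap (log2 difference 0.22 ± 0.045, limma adjusted p = 0.0198). The call of RPS27 was lost without the second library of either group. The count of 11 was 5 without the second 10:2 library, 18 without the first 10:4 library and 7 without the third 10:6 library. In these fits 1.89%, 8.3% and 1.72% of all genes were called. After removal of the trends 5 members rose and 2 fell, where 1.69% of all genes rose and 1.97% fell (3.66%).

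Rises and falls both occurred with and without the TOP tract at the annotated start base. At 10:6, 9 of 42 members with the tract rose and 12 fell, with a median log2 fold change of -0.029. Of 21 without it 6 rose and 4 fell, with a median of -0.025, where 29.7% of all genes rose and 18.3% fell. With the length and GC trends removed, 4 rose and 14 fell with the tract. Without it 2 rose and 10 fell, where 11.6% and 14.1% of all genes did. A member without it could still have a pyrimidine run within 10 bases of that start. RPL17 had 16 bases in such a run and RPL4 had 12, whereas RPL13 and RPS27L had none. The sequence CCGGAA, the core of sites for ETS-family factors, stood on either strand within 250 bases before to 50 after the start in 54.7% of the 64 promoters, against 22.9% of all protein-coding promoters and 56.5% of those of mitochondrial ribosomal protein genes.

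Genes that work beside the ribosomal proteins included some with larger changes. Among all genes tested, 29.7% rose and 18.3% fell at 10:6, with a median log2 fold change of 0.019. With the length and GC trends removed 11.6% rose and 14.1% fell. The 3 genes listed for proteins that sit on or form part of the ribosome but lie outside the symbol rule each fell at 10:6, and with the trends removed 1 of them still did. RACK1, a scaffold protein of the 40S subunit, had 1696, 1704 and 1659 FPKM at 10:6 and 1887, 1898 and 1879 in BON-1 alone (log2 difference -0.16 ± 0.035, limma adjusted p = 0.00267), and -0.072 with the trends removed, which did not pass the test (limma adjusted p = 0.0628). Of 22 genes outside the rule with mRNAs of TOP type, these 3 included, 11 rose and 6 fell at 10:6, or 7 and 6 with the trends removed. NPM1, a nucleolar chaperone of ribosome assembly, had 571, 592 and 595 FPKM at 10:6 and 355, 354 and 351 in BON-1 alone, a log2 difference of 0.73 ± 0.028 (limma adjusted p = 2e-08), and 0.44 with the trends removed. BTF3, a subunit of the complex that binds nascent chains at the tunnel exit, had 393, 389.8 and 397 at 10:6 and 297, 297 and 299 in BON-1 alone, a log2 difference of 0.40 ± 0.022 (limma adjusted p = 1.66e-07). Of 78 ribosome assembly factors 43 rose and 23 fell at 10:6, with a median of 0.26, or 22 and 14 with a median of 0.031 with the trends removed. NCL, nucleolin, had 436, 432 and 431 FPKM at 10:6 and 297, 298 and 297 in BON-1 alone (log2 difference 0.54 ± 0.024, limma adjusted p = 4.04e-08). Of 77 mitochondrial ribosomal protein genes 20 rose and 27 fell at 10:6, with a median of -0.072, or 3 and 25 with a median of -0.089 with the trends removed. MRPS35 had 73.01, 79.6 and 85.2 FPKM at 10:6 and 51.8, 54.5 and 51.7 in BON-1 alone (log2 difference 0.58 ± 0.052, limma adjusted p = 5.99e-06). Differences between lists were not tested.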

How the data were processed

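Polyadenylated RNA of BON-1 cells was sequenced in 12 libraries. HISAT2 and featureCounts are named, with hg38 as the build, per the submitters' processing notes; versions and settings were not stated there. The authors deposited 1 table of FPKM values per gene. Nearly all nonzero values (99.97%) came out as whole reads within 0.0001 read, and these recovered reads gave the depth and an alternative test. Rows reaching 1 FPKM in 3 or more libraries, 13312 of 54261, were tested with limma 3.58.1 (R 4.3.3) on log2(FPKM + 1), with a variance trend, 1 mean per group and all 12 libraries in the fit, and Benjamini-Hochberg adjustment over all genes at a threshold of 0.05. This scale understates the change of low genes. GC content was that of the longest annotated transcript, and length was the shortest at which a gene's values came out as whole reads. Both were at hand for 90.9% of these genes. Their trends were removed as an alternative with natural splines of 5 degrees of freedom each per library. Other alternatives were a pseudocount of 0.1, no filter, other scalings, robust moderation, a replicate block, limma-voom and each library left out. Replicate numbers were not taken to pair the samples. The fit was tested on simulated data. Start sequences were RefSeq's on GRCh38.p14.

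The ribosomal protein genes, the gene lists and the tests were chosen with earlier results of these data known. Named members were the 6 largest rises and falls at 10:6, the 3 largest of each at 10:2 and 10:4, the 2 smallest p between ratios, the 4 highest and 4 lowest, a fixed list, and 2 genes of each other list. Members that share reads with copies elsewhere may be misassigned. A few genes that these rules pick are not reported here.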

Additional observations from a re-analysis of the deposited data

How the results depend on the processing

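Counts of members called were compared under 11 other settings and 12 fits that each left out 1 library. At 10:2 the count was 20, and 7 with no filter on low values, 8 with no variance trend, 32 (9 rises, 23 falls) with limma-voom on recovered reads, and 7 to 30 with a library left out. The share of all genes called was 27.4%, 9.08%, 25.3% and 32.6% in the same order, and 19.4% to 28.6% with a library left out. At 10:4 the count was 28, and 22 to 46 with a library left out, where 45.4% and 38.1% to 45.5% of all genes were called. At 10:6 the count was 37, and 31 to 43, where 48.0% and 40.6% to 48.6% of all genes were called. For 10:4 over 10:2 the count was 3, and 0 with only the groups compared, 0 with the replicate block and the length and GC trends removed, 8 with limma-voom, and 0 to 8 with a library left out. The shares of all genes were 2.88%, 0.361%, 0.372% and 7.85% in that order, and 0.338% to 3.46% with a library left out. For 10:6 over 10:4 the count was 0, and 2 with limma-voom, where 0.331% and 2.07% of all genes were called. For 10:6 over 10:2 the count was 11, and 7 with no filter, 7 with the trends removed, 6 with the replicate block as well, 26 with limma-voom (17 rises, 9 falls), and 5 to 18 with a library left out. The shares of all genes were 6.97%, 1.55%, 3.66%, 2.31% and 11.6% in that order, and 1.72% to 8.3% with a library left out. Over all groups the count of members was 36, and 18 with no filter, 22 with no variance trend and 24 to 47 with a library left out. With the replicate number as a block alone (replicate block) the counts were 16 at 10:2, 26 at 10:4, 37 at 10:6, 2 for 10:4 over 10:2, 0 for 10:6 over 10:4 and 8 for 10:6 over 10:2. The shares of all genes were then 24.3%, 43.1%, 45.9%, 1.31%, 0.113% and 4.07%. Libraries with the same number correlated between -0.043 and 0.046 over 18 pairs, and those with different numbers between -0.053 and 0.062. As 0 libraries correlated best with their own number in every other group, the numbers are not taken to pair them.

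With the trends removed, and equally with the replicate block added unless stated, these log2 fold changes against BON-1 alone turned sign, and the cause was not tested. RPL6 was -0.023 at 10:2, RPL7 -0.072 at 10:2 and -0.035 at 10:4, RPL3 0.010 at 10:2, RPL13A 0.028 at 10:6, RPS27L -0.030 at 10:6 and RPL13 0.008 at 10:4. RPL24 was -0.148 at 10:4 and -0.042 at 10:6, and RPL26 -0.118 and -0.161. At 10:2, 10:4 and 10:6 in that order RPS24 was -0.164, -0.148 and -0.083, RPS3A -0.089, -0.071 and -0.092, RPL36A -0.021, -0.081 and -0.154, RPS6 -0.025, -0.089 and -0.073, RPL5 -0.114, -0.235 and -0.129, and RPS27A -0.140, -0.178 and -0.152. RPL5 was also -0.121 for 10:4 over 10:2 (without the block). With quantile normalization RPL13 was 0.007 at 10:4. Of the named members' values with a library left out, 2315 kept their direction and side of the threshold, 38 gained a call and 95 lost one. Depth limits the low members most, since RPL36A rests on 166 to 310 reads per library.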

Other observations

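Genes upstream and downstream of ribosome production moved in both directions at 10:6 against BON-1 alone. Among all genes tested, 29.7% rose and 18.3% fell there, or 11.6% and 14.1% with the length and GC trends removed. Of 33 translation initiation factors 16 rose and 12 fell, or 8 and 12 with the length and GC trends removed. EIF4G2, a scaffold factor of cap-independent initiation, had 281, 292 and 291 FPKM at 10:6 and 185, 178 and 180.5 in BON-1 alone (log2 difference 0.67 ± 0.030, limma adjusted p = 5.02e-08). EIF3A, the largest subunit of initiation factor eIF3, had 32.2, 32.3 and 34.1 at 10:6 and 16.99, 17.9 and 17.3 in BON-1 alone (log2 difference 0.88 ± 0.042, limma adjusted p = 6.56e-08). In both genes the groups did not overlap. Of 23 genes of RNA polymerase I and its factors 20 were tested, of which 6 rose and 8 fell, or 3 and 5 with the trends removed. RRN3, which brings RNA polymerase I to the ribosomal DNA promoter, had 14.5, 14.7 and 15.4 FPKM at 10:6 and 10.2, 10.2 and 9.67 in BON-1 alone (log2 difference 0.53 ± 0.056, limma adjusted p = 1.87e-05, and 0.14 with the trends removed, not past the test).

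Of 11 genes that control TOP mRNAs 1 rose and 7 fell at 10:6, where 29.7% of all genes rose and 18.3% fell. With the trends removed 0 rose and 4 fell, where 11.6% of all genes rose and 14.1% fell. The 1 that rose was RPS6KB1, the S6 kinase, with 1.60, 1.69 and 1.61 FPKM at 10:6 and 1.00, 0.914 and 1.04 in BON-1 alone (log2 difference 0.41 ± 0.081, limma adjusted p = 0.00155, and -0.035 with the trends removed). RPTOR, the raptor subunit of mTOR complex 1, had 14.6, 13.9 and 13.4 at 10:6 and 17.5, 16.6 and 17.5 in BON-1 alone (log2 difference -0.28 ± 0.065, limma adjusted p = 0.00403). Of 12 snoRNA host transcripts without a coding product, many of which carry TOP tracts, 11 were tested, and 3 rose and 1 fell at 10:6, or 1 and 3 with the trends removed. SNHG1 had 79.2, 76.1 and 72.8 FPKM at 10:6 and 61.2, 62.8 and 62.5 in BON-1 alone (log2 difference 0.29 ± 0.038, limma adjusted p = 9.09e-05, and 0.002 with the trends removed). DDX18, an RNA helicase of 60S assembly, had 22.5, 23.6 and 24.8 at 10:6 and 13.7, 12.7 and 13.1 in BON-1 alone (log2 difference 0.80 ± 0.043, limma adjusted p = 1.58e-07).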
